A study of Mus musculus with 4 samples.

Results

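The muscle acetylcholine receptor and the proteins that gather it at the neuromuscular junction were followed through 10 genes in cultured muscle satellite cells (MuSC), the resident stem cells of skeletal muscle. The genes were chosen by name: the receptor subunits Chrna1, Chrnb1, Chrnd, Chrng and Chrne, the clustering genes Musk, Lrp4, Dok7 and Rapsn, and Colq. All 10 were among the 20065 genes of the deposited table, and 9 of them were among the 16212 genes tested, since Chrne lay below the filter of a mean of 5 normalized counts. RNA-seq covered 4 libraries, 2 control and 2 Prmt5sKO, from adult C57BL/6 mice. Control cells were Pax7CreERT2/Prmt5+/loxP and Prmt5sKO cells Pax7CreERT2/Prmt5loxP/loxP. Both groups carried the tamoxifen-inducible Cre at Pax7 and, by the study's methods, were treated in culture with 4-hydroxytamoxifen (the labels give TAM), so the control cells, labelled wild type, have 1 floxed allele of the arginine methyltransferase gene Prmt5 and a Cre themselves. The cells came from limb and trunk muscles, were sorted and then cultured, and Cre acts in the cells that express Pax7. The deposited values are group means, from which whole read counts of single libraries were recovered. The columns give no replicate numbers, and the libraries of a group are therefore named deeper and shallower by their total reads on the genes of the table. Wherever 2 values are given for a group, the deeper library comes first.

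At the neuromuscular junction acetylcholine released by the motor nerve opens a pentameric channel made of alpha, beta, delta and gamma or epsilon subunits. Fetal and uninnervated muscle uses the gamma subunit, which the epsilon subunit replaces after birth under the nerve. Nerve-derived agrin binds Lrp4, which activates the receptor kinase MuSK, the adaptor Dok7 holds MuSK active, and rapsyn, the product of Rapsn, ties the receptors into clusters. Colq encodes the collagen tail that anchors acetylcholinesterase in the synaptic cleft. The receptor genes are known to rise as myoblasts differentiate and to fall again outside the synapse once nerve activity starts. Their promoters hold E-boxes, CANNTG, which factors of the MyoD family bind, and those of synaptic genes can hold an N-box, CCGGAA, which Ets-family factors bind.

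The stretches before the start sites of 4 genes are shown because these motifs sit in them: Chrna1 as the most abundant subunit gene, Chrng and Chrne as the fetal and adult alternatives and Musk as the clustering gene that was most alike in both Prmt5sKO libraries. The RefSeq promoter table (GRCm38.p6) held 7 windows for 6 of the 10 genes. Each line below gives the 200 bases before the start, 5′ to 3′ on the strand of the gene, and capitals mark every CANNTG, and in Chrne also the CCGGAA. The stretches are chr2:73580339-73580538 on the minus strand for Chrna1, chr1:87205611-87205810 on the plus strand for Chrng, chr4:58285762-58285961 on the plus strand for Musk and chr11:70619195-70619394 on the minus strand for Chrne. GENCODE also lists a Chrng transcript that starts further upstream than the RefSeq start used here. In Chrne the last 22 printed bases are exon of the GENCODE transcript Chrne-201, which starts further upstream too. Positions are counted from the RefSeq starts.
Chrna1: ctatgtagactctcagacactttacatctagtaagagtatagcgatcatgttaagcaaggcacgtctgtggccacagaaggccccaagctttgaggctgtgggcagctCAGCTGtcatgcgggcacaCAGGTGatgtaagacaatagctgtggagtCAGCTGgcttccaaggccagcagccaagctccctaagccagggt
Chrng: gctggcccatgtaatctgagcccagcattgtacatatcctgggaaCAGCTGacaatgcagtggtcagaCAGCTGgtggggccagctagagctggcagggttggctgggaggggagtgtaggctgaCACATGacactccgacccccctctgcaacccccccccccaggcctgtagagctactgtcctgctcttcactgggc
Musk: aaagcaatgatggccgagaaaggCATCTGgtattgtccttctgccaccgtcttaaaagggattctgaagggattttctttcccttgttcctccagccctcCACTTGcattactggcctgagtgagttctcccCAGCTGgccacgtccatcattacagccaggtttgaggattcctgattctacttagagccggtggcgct
Chrne: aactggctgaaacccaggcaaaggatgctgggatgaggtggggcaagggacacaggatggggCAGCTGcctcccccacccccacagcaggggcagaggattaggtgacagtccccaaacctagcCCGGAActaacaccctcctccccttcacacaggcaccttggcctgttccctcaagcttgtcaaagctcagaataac

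Within 250 bases before the start, negative positions giving the first base of a motif counted back from the start, Chrna1 held CAGCTG at -92 and -44 and CAGGTG at -73. Chrng held CAGCTG at -155 and -132 and CACATG at -75. The Musk window had CATCTG at -177, CACTTG at -100 and CAGCTG at -68. In Chrne CAGCTG lay at -138 and CCGGAA at -76. Chrnb1, whose window overlaps exons of Fgf11 and is not printed, contained CATTTG at -119, CAGTTG at -96 and CAGGTG at -29. One of the windows of Dok7 held CAGATG at -149 and the other none. At least 3 CANNTG were present in 4 of the 7 windows and in 12.2% of all 32851 windows of the table, and at least 2 CAGCTG in 2 of the 7 windows and in 1.26% of all. CAGCTG is one form of CANNTG, both read the same on either strand, and CCGGAA was searched on both strands and lay in 12.0% of all windows. These matches describe letters in the windows and were not compared with any measure of binding.

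The recovered libraries held 13240754 to 20047430 reads counted on the genes of the table, which is not all reads sequenced. As a check of the labels, Prmt5 had 2273 and 2906 normalized counts in control and 244 and 202 in Prmt5sKO cells, with no overlap (log2 fold change -3.52, SE 0.27, n = 2 and 2, adjusted p = 0.193 in limma-voom with Benjamini-Hochberg adjustment). This was the smallest adjusted p of all genes, and limma-voom called 0 of 16212 genes (0%), calls being a change of 2-fold or more with an adjusted p no higher than 0.05, while 2101 genes had an unadjusted p under 0.05. A second fit, limma-trend, also called 0 genes, with 2376 at an unadjusted p under 0.05. The satellite cell markers were present in all libraries, with Pax7 at 3079 and 3002 normalized counts in control and 3664 and 2570 in Prmt5sKO cells. Markers of muscle differentiation separated the Prmt5sKO libraries from each other. The 20 genes of that list summed to 66702 and 110206 normalized counts in control cells, to 65141 in the deeper Prmt5sKO library and to 500255 in the shallower one. Much of each sum came from the titin gene Ttn, at 39149 and 90033 in control and 28428 and 171011 in Prmt5sKO cells. The sums therefore do not rank the deeper Prmt5sKO library against control for the other genes. Over the control mean, the median of the 20 genes in that library was 0.65 on the log2 scale. Nothing in the labels ties the libraries to separate mice, so p-values measure the spread between these libraries only.

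Transcripts of a fetal-type receptor and of its whole clustering machinery were present in the cultured cells of both groups. Those of the adult subunit were close to absent in both, and those of the esterase tail in control cells. Per kb of exon, Chrna1 stood highest in control cells with 4871 ± 101 normalized counts per kb (SD, n = 2), followed by Musk with 817 ± 136 and Chrnb1 with 764 ± 117. Chrnd followed with 555 ± 120, Lrp4 with 497 ± 71.7, Rapsn with 491 ± 45.9, Dok7 with 487 ± 126 and Chrng with 327 ± 45.3. Colq and Chrne closed the order at 1.94 ± 0.64 and 1.82 ± 0.68. The libraries of neighbours in this order overlapped for Musk and Chrnb1, for Chrnd, Lrp4, Rapsn and Dok7 in turn, and for Colq and Chrne, so those steps do not exceed the spread. In Prmt5sKO cells Chrna1 was at 6540 ± 940 and Musk at 1259 ± 10.7 per kb, ahead of Chrng at 996 ± 974, Chrnb1 at 836 ± 179, Chrnd at 737 ± 501, Lrp4 at 667 ± 204, Rapsn at 579 ± 134 and Dok7 at 453 ± 132. Every neighbouring pair from Musk to Dok7 overlapped there, and Colq at 21.4 ± 20.6 lay above Chrne at 3.54 ± 0.045. With the length of the longest coding transcript in place of all exons, an alternative added after the data were seen, Dok7 moved from rank 7 to rank 4, Chrnd from rank 4 to rank 6 and Rapsn from rank 6 to rank 7 in control cells, and the other 7 genes kept their ranks.

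**Figure D1:**
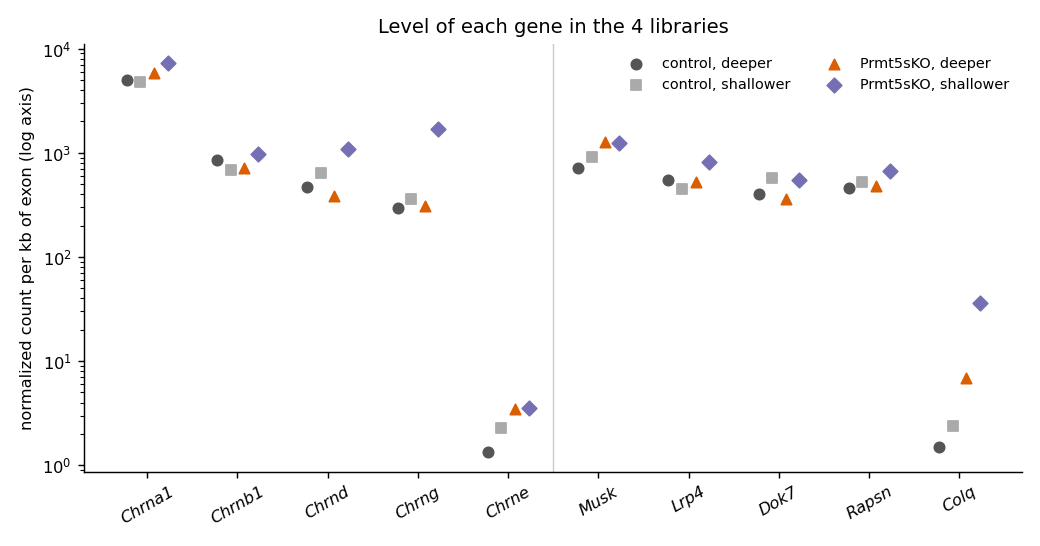
Normalized counts per kb of exon on a log axis for the 10 genes, receptor subunits left of the line and clustering genes with Colq right of it, with 1 point for each of the 4 libraries. Chrna1 lies near 4871 per kb in control cells, Chrne and Colq lie below 3 per kb there, and the shallower Prmt5sKO library is the highest for every gene except Musk and Dok7.

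In Prmt5sKO cells the subunit and clustering genes were mostly somewhat higher on average, and no change passed the test. Limma-voom called 0 of the 9 genes tested, against 0% of all genes. It did not call Prmt5, the gene inactivated here, so 0 calls do not show that these genes were unchanged. With DESeq2 at the same fold and adjusted p limits, the study did report changed genes. Both Prmt5sKO libraries lay above both control libraries for 3 of the 9, Chrna1, Musk and Colq, and this held for 25.2% of all genes tested, while 0 of the 9 lay below both, against 23.6% of all. The fitted log2 fold change was above 0 for 8 of the 9, with Dok7 as the exception, and for 51.4% of all genes, and the median was 0.40 for the 9 genes and 0.02 for all genes. A single gene, Musk, had an unadjusted p under 0.05, in the direction that 6.01% of all genes shared. These are bulk libraries, in which a change in RNA per cell and a change in the share of cells that express a gene cannot be told apart. The libraries of the Prmt5sKO group did not act alike: over the control mean the median of the 9 genes was -0.018 on the log2 scale in the deeper library and 0.63 in the shallower one, and 8 of the 9 were higher in the shallower than in the deeper library, against 49.2% of all genes.

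The alpha subunit gene Chrna1 (chromosome 2, 73563215 to 73580338, minus strand), whose product forms the acetylcholine binding site with its neighbours, had 21679 and 21052 normalized counts in control and 25767 and 31598 in Prmt5sKO cells. Both Prmt5sKO libraries were the higher ones, by 0.27 and 0.56 over the control mean on the log2 scale. The fitted log2 fold change was 0.42 (SE 0.22, adjusted p = 0.463 in limma-voom).

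Chrnb1 (chromosome 11, 69784036 to 69795943, minus strand), the beta subunit gene, showed overlapping groups, with 2144 and 1724 normalized counts in control and 1795 and 2437 in Prmt5sKO cells. The fitted log2 fold change was 0.12 (SE 0.25, adjusted p = 0.847). The delta subunit gene Chrnd (chromosome 1, 87190607 to 87200070, plus strand) had 1546 and 2106 in control and 1259 and 3587 in Prmt5sKO cells, so the Prmt5sKO libraries enclosed the control libraries. Its fitted log2 fold change of 0.24 had an SE of 0.49 (adjusted p = 0.850).

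Chrng (chromosome 1, 87204657 to 87212694, plus strand), the fetal gamma subunit gene that begins 4587 bases beyond Chrnd, was split most clearly by library. It had 1227 and 1494 normalized counts in control cells, 1280 in the deeper Prmt5sKO library and 7013 in the shallower one. The deeper Prmt5sKO library thus lay between the controls, whereas the shallower one stood 5.15-fold above the control mean. The fitted log2 fold change was 1.15 (SE 0.74, adjusted p = 0.525), and the difference between the Prmt5sKO libraries, 2.45 on the log2 scale, was reached or exceeded by 3.37% of all genes tested. Without the deeper Prmt5sKO library Chrng had a log2 fold change of 2.37 (adjusted p = 0.00344 in limma-voom), and without the shallower one the value was -0.079 (adjusted p = 0.909). In these fits the lone library is assumed to vary like the controls.

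The adult epsilon subunit gene Chrne (chromosome 11, 70614883 to 70619216, minus strand) was counted in only 2 and 3 reads in control and 8 and 6 reads in Prmt5sKO cells. The exact Poisson 95% intervals ran from 0.24 to 7.22 and from 0.62 to 8.77 reads in control and from 3.45 to 15.8 and from 2.20 to 13.1 in Prmt5sKO libraries, so they overlapped between the groups. Intervals on reads cover counting error only. Set against the fetal gene, Chrne made up 0.184% of 1088 and 0.260% of 1155 reads of Chrne plus Chrng in control, and 0.461% of 1736 and 0.0860% of 6979 in Prmt5sKO cells. The exact Clopper-Pearson intervals of these shares lay between 0.0223% and 0.906%, and gamma-type transcripts exceeded epsilon-type ones in every library. Chrne shares its locus with 4930544D05Rik on the opposite strand but no exon bases.

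Among the 5 subunit genes, counted per kb of exon, Chrna1 contributed 75.4% and 74.0% in control cells, 80.7% in the deeper Prmt5sKO library and 65.8% in the shallower one. Chrng made up 4.50%, 5.54%, 4.23% and 15.4% in the same order. Its ratio to Chrnd per kb was 0.627 and 0.560 in control libraries and 0.803 and 1.54 in Prmt5sKO libraries. The share of Chrng in the deeper Prmt5sKO library was thus just below those of the controls and in the shallower one above them, and the share of Chrna1 lay outside the controls in both, on opposite sides.

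**Figure D2:**
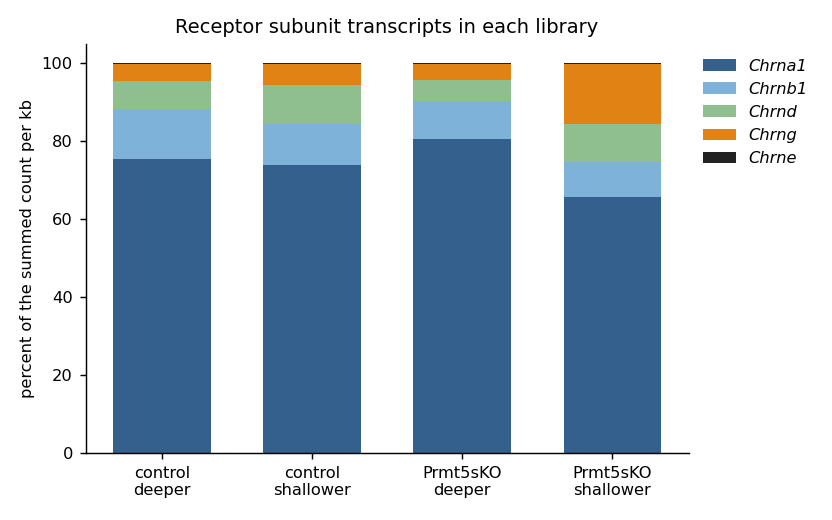
Share of each receptor subunit gene in the summed normalized counts per kb of exon, in percent, for each of the 4 libraries. Chrna1 takes 65.8% to 80.7%, Chrng 15.4% in the shallower Prmt5sKO library and 4.23% to 5.54% in the others, and Chrne is too low to be seen.

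Musk (chromosome 4, 58285960 to 58374303, plus strand), the kinase at the centre of receptor clustering, had 2721 and 3448 normalized counts in control and 4784 and 4727 in Prmt5sKO cells. The groups did not overlap, and the Prmt5sKO libraries differed by less than the control libraries did. The log2 fold change was 0.63 (95% interval 0.11 to 1.16, SE 0.22, n = 2 and 2), a 1.54-fold ratio of means, with an adjusted p of 0.330 in limma-voom. Over the control mean Musk was 0.64 higher on the log2 scale in one Prmt5sKO library and 0.63 in the other, and it was the only one of the 9 genes that was not higher in the shallower library.

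Lrp4 (chromosome 2, 91457511 to 91513779, plus strand), the agrin receptor, overlapped between the groups, at 5757 and 4691 normalized counts in control and 5489 and 8515 in Prmt5sKO cells (log2 fold change 0.40, SE 0.28, adjusted p = 0.554). Dok7 (chromosome 5, 35056766 to 35087839, plus strand), the adaptor that binds MuSK, was the one gene with a negative estimate, at 1701 and 2464 in control and 1540 and 2337 in Prmt5sKO cells (log2 fold change -0.11, SE 0.30, adjusted p = 0.891). Rapsn (chromosome 2, 91035620 to 91045729, plus strand), the receptor scaffold, had 827 and 944 in control and 873 and 1215 in Prmt5sKO cells (log2 fold change 0.22, SE 0.25, adjusted p = 0.719). On the log2 scale the deeper Prmt5sKO library differed from the control mean by 0.08 for Lrp4, -0.41 for Dok7 and -0.018 for Rapsn. The 95% intervals of the fitted differences were -0.28 to 1.08 for Lrp4, -0.84 to 0.62 for Dok7 and -0.39 to 0.83 for Rapsn. Each of these includes no change and changes in both directions. An antisense gene, Gm13778, shares 4 exon bases with Rapsn.

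Colq (chromosome 14, 31523082 to 31591343, minus strand), the anchor of acetylcholinesterase, showed the widest relative difference of the group from a very low base. Only 5 and 7 reads fell on it in control cells, against 35 and 136 in Prmt5sKO cells. The exact Poisson 95% intervals, 1.6 to 11.7 and 2.81 to 14.4 reads in control and 24.4 to 48.7 and 114 to 161 in Prmt5sKO libraries, are of unscaled reads. Scaled to normalized counts, they ran from 3.65 to 18.7 in the shallower control library and from 18.1 to 36.1 in the deeper Prmt5sKO library, so these libraries overlapped slightly, while the shallower Prmt5sKO library, at 115 to 162, stood clear of both controls. Normalized, these were 5.65 and 9.08 against 25.9 and 137, a log2 fold change of 2.84 with an SE of 1.43 (adjusted p = 0.442 in limma-voom). The deeper Prmt5sKO library was 3.52-fold and the shallower one 18.6-fold above the control mean. Without the deeper Prmt5sKO library the log2 fold change was 4.16 (adjusted p = 0.0458), and without the shallower one it was 1.77. Of its exon bases 199 (5.23%) are shared with Gm49387 on the same strand, which is not among the genes of the table. The esterase gene Ache itself, at 45.2 and 36.3 normalized counts in control and 59.3 and 54.3 in Prmt5sKO cells, had a log2 fold change of 0.47 (SE 0.50, adjusted p = 0.697).

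**Figure D3:**
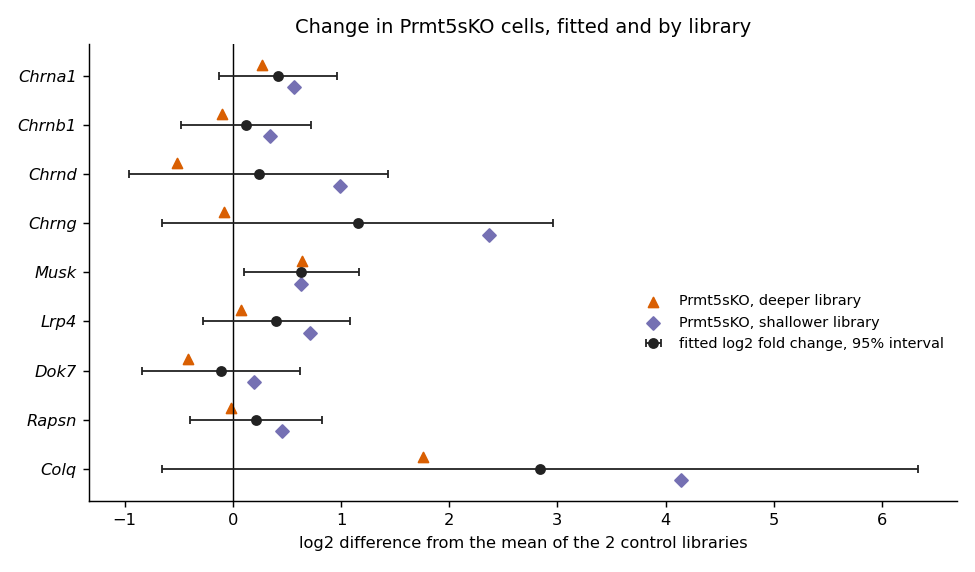
Log2 difference from the mean of the 2 control libraries for the 9 genes tested. Black points with bars give the fitted log2 fold change and its 95% interval, triangles the deeper and diamonds the shallower Prmt5sKO library. The interval of Musk, 0.11 to 1.16, is the one that stays above 0 before adjustment, and Chrng and Colq show the widest gaps between the libraries.

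The direction of several genes thus rested on 1 library. Without the shallower Prmt5sKO library the median of the 9 genes was -0.016 in place of 0.40, and Chrnb1, Chrnd, Chrng and Rapsn had negative estimates between -0.52 and -0.016. Dok7, negative in the main fit too, was at 0.19 without the deeper Prmt5sKO library and at -0.41 in the fit without the shallower one. In that fit 0 of the 9 genes and 0.611% of all genes were called. Without the deeper Prmt5sKO library 2 of the 9, Chrng and Colq, were called, against 3.06% of all genes. With scaling by library size only, which moves the median of all genes from 0.02 to 0.13, Lrp4 and Rapsn joined Chrna1, Musk and Colq as genes with both Prmt5sKO libraries above both controls, and the share of all genes was 30%. With a replicate block in which the deeper control and the shallower Prmt5sKO library form a pair, 0 of the 9 genes and 2.13% of all genes were called.

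Alongside these differences, muscle differentiation markers moved with the same library. All 20 of that list had positive estimates, against 51.4% of all genes, and 15 lay above both controls in both Prmt5sKO libraries, against 25.2%. An unadjusted p under 0.05 was found for 5, all higher, against 6.01% of all genes, 0 passed the adjusted test, and the median log2 fold change was 2.81. Over the control mean their median was 0.65 on the log2 scale in the deeper Prmt5sKO library and 5.04 in the other. None of the 20 was missing from the table. At the low end Tnnc2, a fast troponin gene, had 6.78 and 0 normalized counts in control and 2.96 and 125 in Prmt5sKO cells. It passed the filter only through the shallower Prmt5sKO library, where it is high, so its positive estimate carries no weight in the count of 20. Myog, the transcription factor that marks the start of differentiation, had 1436 and 1189 normalized counts in control and 3707 and 19508 in Prmt5sKO cells. The largest estimates of the list were those of Ckm, muscle creatine kinase, with 3.97, Acta1, skeletal actin, with 3.51, Mylpf, a fast myosin light chain, with 3.26 and Myl4 with 3.19. Myog and Mef2c also stand in the list of receptor gene regulators. The 8 satellite cell markers had a median of 0.04 and estimates from -0.41 for Myf5 through 0.27 for Vcam1 and 0.37 for the integrin gene Itga7 to 0.67 for desmin, Des, with Myod1 at 15445 and 12944 in control and 12153 and 15548 in Prmt5sKO cells. The part of differentiation in the levels of the receptor and clustering genes was not tested.

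**Figure D4:**
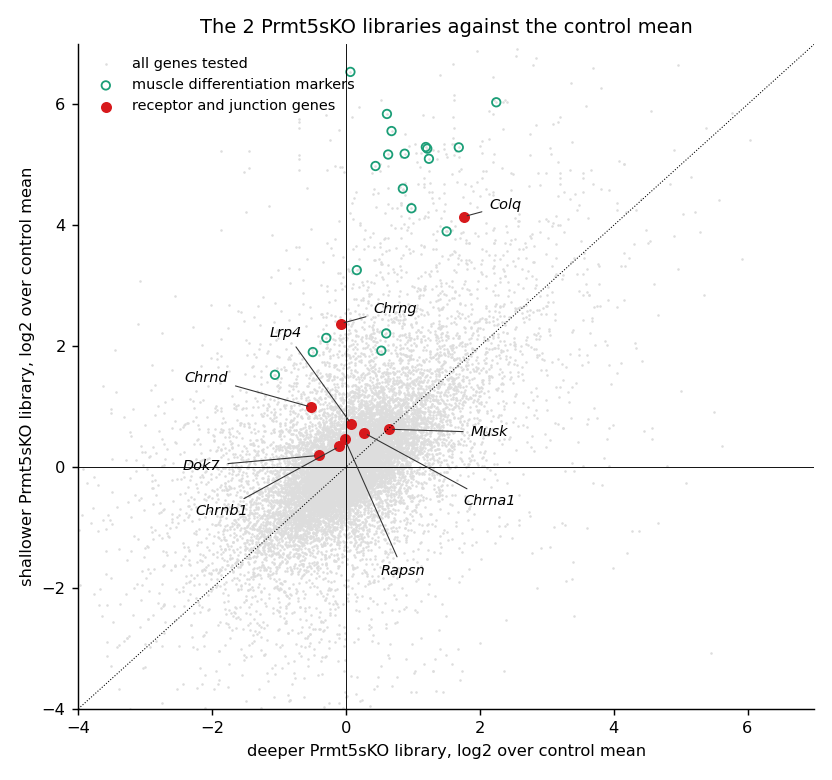
Each gene tested by its log2 difference from the control mean in the deeper (horizontal axis) and the shallower (vertical axis) Prmt5sKO library, with equal values on the dotted line and 167 genes beyond the axes. Receptor and junction genes are filled points and muscle differentiation markers open circles. Chrng and Colq lie among the open circles, far above the line, and Musk lies on the line at 0.64 and 0.63.

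Markers of nerve and Schwann cells, which supply agrin and neuregulin at a synapse, were low or missing in the cultures. Transcripts of the agrin gene Agrn were present all the same, at 1600 and 1205 normalized counts in control and 796 and 1591 in Prmt5sKO cells. The neuregulin gene Nrg1 was at 80.2 and 40.2 in control and 28.9 and 43.2 in Prmt5sKO cells. Chat, Slc18a3, Slc5a7 and Mnx1, the defining motor neuron genes, were not among the genes of the table, and Sox10 and S100b were below the filter. Syp and Isl1 had estimates of 0.63 and -0.28, at 7.91 to 38.4 normalized counts. Endothelial and haematopoietic markers summed to 215 and 248 in control and 106 and 99.6 in Prmt5sKO libraries, where Kdr, the receptor for vascular growth factor on endothelial cells, had a log2 fold change of -1.78. Pecam1 with -1.48 and Cd68 with -0.99 leaned the same way, and Itgam, with 2.21, the other way. Itgam had 4.52 and 0 normalized counts in control and 3.70 and 22.1 in Prmt5sKO cells, and passed the filter only through the shallower Prmt5sKO library. Ptprc was not in the table and Cdh5 was below the filter. Fibro-adipogenic markers were at 62.2 and 217 in the control libraries and at 61.5 and 63.4 in the Prmt5sKO libraries, with the shallower control library apart through Dcn, at 115 against 7.91 in the deeper one. The other genes of this list were Pdgfra with an estimate of -0.51, Ly6a, at 15.8 and 29.8 in control and 4.45 and 30.2 in Prmt5sKO cells, and Lum, at 27.2 in the shallower control library and 0 in the other libraries.

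Further genes of the junction were described from lists. Of 29 genes for organisers and the postsynaptic scaffold, 28 were tested and the receptor gene Erbb4 was not. An unadjusted p under 0.05 was found for 5 higher genes, the laminin genes Lama4 and Lama2, the dystroglycan gene Dag1, the dystrobrevin gene Dtna and Prkar1a, a regulatory subunit gene of protein kinase A, and for 2 lower genes, the kinase gene Abl1 and the laminin gene Lama5, where 6.01% and 6.95% of all genes had such values. Both Prmt5sKO libraries were above both controls for 10 of the 28 and below for 4, against 25.2% and 23.6% of all genes, and the median log2 fold change was 0.23. None passed the adjusted test. The largest estimate belonged to Lama4, a laminin alpha chain of the synaptic basal lamina, with 1.13 and 2.59 normalized counts in control and 24.5 and 25.1 in Prmt5sKO cells (log2 fold change 3.44, SE 1.11, adjusted p = 0.320). Its control values lay below the filter of 5 normalized counts, so Lama4 was tested only through the Prmt5sKO libraries where it is high. The size of its estimate depends on the offset used for low counts. So may its unadjusted p, as no other offset was tried. Next came Scn4a, the muscle sodium channel, with 38.4 and 20.8 in control and 40.8 and 932 in Prmt5sKO cells (2.50, SE 2.26), followed by Sntb1, a syntrophin, with 1.75 (SE 1.39) and the neuregulin receptor gene Erbb3 with an estimate of 1.5 (SE 1.04). The last of these had 2282 normalized counts in the shallower Prmt5sKO library and 218 to 392 in the other libraries. Lama4, like Musk, differed little between the Prmt5sKO libraries, while Scn4a, Sntb1 and Erbb3 were high in the shallower one alone.

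Genes for glycosylation enzymes whose loss causes congenital myasthenia were all tested, 5 of 5, with a median of 0.11 and 0 calls. Dpagt1, which starts the lipid-linked sugar chain, was lower in both Prmt5sKO libraries, at 525 and 425 normalized counts in control and 295 and 273 in Prmt5sKO cells (log2 fold change -0.74, SE 0.26, adjusted p = 0.336). The estimates of Gfpt1, Alg2 and Alg14 were 0.29, 0.17 and -0.16. Among transcriptional regulators of receptor genes, 17 of 18 were in the table, without Dach2, their median was 0.04, and 1, Myog, had an unadjusted p under 0.05. Hdac9, a deacetylase tied to the response to innervation, had 10.2 and 0 normalized counts in control and 21.5 and 102 in Prmt5sKO cells, with a log2 fold change of 3.96 (SE 1.95, adjusted p = 0.432) that depends on the offset used for 0 counts. Mef2c with 2.91 and Myog with 2.72 followed, and Myf6 had 0.95. The Ets-family subunit gene Gabpa, whose product binds the N-box, was at 1504 and 1554 in control and 1565 and 1036 in Prmt5sKO cells. Of 11 nicotinic subunit genes typical of neurons, 3 were tested, with log2 fold changes of -1.48 for Chrna7, -1.06 for Chrna2 and -0.20 for Chrnb2, at 8.89 to 93.4 normalized counts, and 5 were not among the genes of the table.

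**Figure D5:**
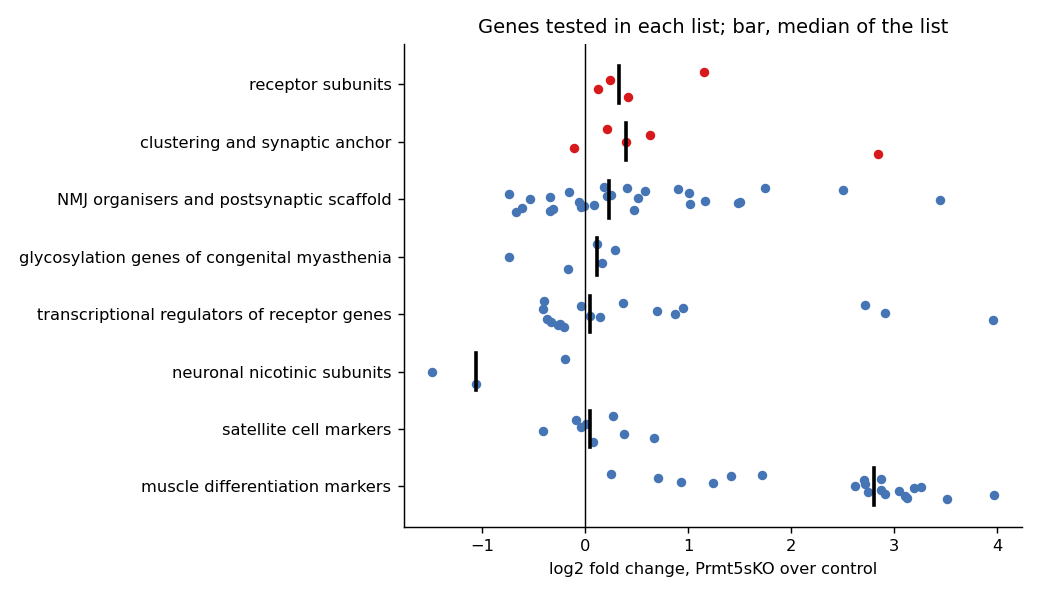
Log2 fold change of Prmt5sKO over control for every gene tested in each list, with a vertical bar at the median of the list. The medians are 0.33 for receptor subunits, 0.40 for clustering genes with Colq, 0.23 for organisers and scaffold, 0.11 for glycosylation, 0.04 for regulators, -1.06 for neuronal subunits, 0.04 for satellite cell markers and 2.81 for differentiation markers.

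Averaged over the 9 genes tested and centred on the log2 scale, the profile was -0.43 and -0.23 in control and -0.15 and 0.82 in Prmt5sKO cells. Of 11479 other genes with a mean of at least 50 normalized counts, the 5 nearest to it by Euclidean distance over the 4 libraries were Chst15, which encodes a sulfotransferase, Nudt13, a Nudix hydrolase gene, Baiap2l1, an actin adaptor gene, Rab3a, a vesicle GTPase gene, and the receptor gene Notch1, at distances of 0.0862 to 0.124. Notch1 had 950 and 1226 normalized counts in control and 1251 and 2469 in Prmt5sKO cells.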

How the data were processed

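RNA was measured in 4 libraries of cultured MuSC, 2 control and 2 Prmt5sKO, after ribosomal depletion (Ion Total RNA-Seq Kit v2). The authors trimmed reads with Reaper, aligned them with STAR 2.4.0a to GRCm38, counted them per gene and ran DESeq2 1.62. The signal columns they deposited hold, for each group, the mean of counts divided by size factors. The remaining deposited columns (log2 fold changes, a score column of standard errors, and each p-value before and after adjustment) hold the authors' own comparison and were not used. Each group mean adds whole multiples of 1 step per library, and reads were recovered from these steps for 100% of genes in both groups. No other columns held per-sample values. Whether the counting used strand is not given in the sources used here. Runs held pairs of libraries, but which pairs is not given.

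Counts were scaled by the trimmed mean of M-values (TMM, own code, trims of 30% and 5%). Genes with a mean of at least 5 normalized counts were tested with limma-voom (limma 3.58.1, R 4.3.3), without a block, and with Benjamini-Hochberg adjustment over 16212 genes. A call needed a change of 2-fold or more and an adjusted p no higher than 0.05. By permutation 2 libraries against 2 cannot go below p = 0.333. Recovery and fit were tested on simulated data. A normalized count is per library of average size, and values per kb use the union of exons in GENCODE M21 (GRCm38), which held 19782 of the 20065 identifiers. Motifs were searched in the RefSeq promoter windows, and intervals were computed in scipy 1.17.1. Named genes are all members, Prmt5, Pax7, Myod1 and Myog, up to 4 genes with the largest absolute estimate in each other list and the 5 genes nearest in profile. Genes with an unadjusted p under 0.05 and Ache, Agrn, Nrg1, Tnnc2 and Gabpa were named after their values were seen. The members and lists were chosen with earlier results of these data known. Alternatives covered scaling, filter, limma-trend, pairing, single libraries left out and gene length. Some genes of the nerve and Schwann cell list are not reported here.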

Additional observations from a re-analysis of the deposited data

How the results depend on the processing

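The number of genes called stayed at 0 under the authors' size factors, library size only and upper-quartile scaling. It also stayed at 0 with no filter on low counts, a mean of at least 50 normalized counts and limma-trend. A replicate block that pairs the deeper libraries gave 0 calls as well. The number of receptor and junction genes called stayed at 0 under the same settings. Prmt5, the inactivated gene, was not called under them either, so these counts do not show absence of change. Leaving out 1 library gave 0 to 496 genes called, with 496 without the deeper and 99 without the shallower Prmt5sKO library, and 0 to 2 receptor and junction genes. Across genes the shallower minus deeper difference correlated at -0.17 between the groups, and the crossed replicate block called 346 genes, among them 0 of the 9. Musk had an adjusted p of 0.430 under the first replicate block and 0.167 under the crossed one, within 0.167 to 0.969 over its alternatives.

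The median log2 fold change of the 9 genes ranged from -0.016 to 0.63 with 1 library left out. It stayed positive in the other settings. The count of genes above both controls was 5 under library size only and 3 to 8 with 1 library left out, where 35.6% to 39.7% of all genes met the weaker condition. With 1 library left out, log2 fold changes ranged from -0.10 to 0.34 for Chrnb1, -0.52 to 0.99 for Chrnd, -0.079 to 2.37 for Chrng, -0.016 to 0.46 for Rapsn, -0.41 to 0.19 for Dok7, 1.77 to 4.16 for Colq, 0.27 to 0.56 for Chrna1, 0.45 to 0.81 for Musk and 0.08 to 0.71 for Lrp4, whose lowest value was without the shallower and highest without the deeper Prmt5sKO library. The fitted estimates of Chrna1, Musk, Lrp4 and Colq stayed positive in every setting in which they were fitted. Colq could not be fitted at a mean of at least 50. With 2 libraries per group the fits rest on few degrees of freedom, and the lowest counts, those of Chrne and Colq, limit what can be said of them. The cause of the gap between the Prmt5sKO libraries was not tested.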
